A study of Yarrowia lipolytica with 9 samples.

Results

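Across the whole span of acidity in this study of the oil-storing yeast Yarrowia lipolytica, transcripts at pH 6.0 were compared with those at pH 2.0, gene by gene. Of the 6170 genes of the deposited table, the 6151 with at least 1 CPM (read counts per 1000000 reads, scaled as given under processing) in 3 of the 6 libraries were compared, and 19 were not. All cultures were of strain W29, a wild-type isolate, and grew in bioreactors on 50 g/L glucose, 1.7 g/L yeast nitrogen base, 1.5 g/L yeast extract and 1 g/L ammonium sulfate. Cells of the first group grew with the medium held at pH 6.0 (3 libraries, A to C), those of the second at pH 2.0 (3 libraries), and the labels speak of triplicate bioreactors, all harvested at hour 50. A further 3 libraries at pH 4.0 shared the estimate of the spread between replicates and are given as side values. Cultures were taken at the same hour, so acidity, growth stage and what was left of the medium cannot be told apart, and results from a single strain and a single hour cover no other.

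Fungi sense the pH of their surroundings through the Rim pathway, which ends in the zinc-finger transcription factor Rim101. In Y. lipolytica this pathway is known for its control over which extracellular proteases are secreted. The cell also keeps its cytoplasm near neutral by pumping protons out through an ATPase of the plasma membrane. Y. lipolytica is strictly aerobic, secretes citrate when nitrogen runs out on glucose, and grows over an unusually wide range of pH.

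Genes are named by locus tag, since neither the data nor the reference table given for the series pairs these tags with names. Roles are stated for 8 loci and for a list of central carbon and lipid loci, as background from published tag assignments, and no role is given to any other tag. In this naming scheme the letter after YALI0 stands for the chromosome and the numbers run along it. Depth was 13426731 to 17701766 reads per library, so 3 reads, taken as the floor, were worth 0.169 to 0.205 CPM. CPM counts reads and not transcripts per length, so levels are compared between libraries and not between genes.

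The span from pH 2.0 to pH 6.0 touched most of the genome. In limma, 4490 of 6151 genes (73.0%) differed at a Benjamini-Hochberg adjusted p under 0.05, with 2162 higher (35.1%) and 2328 lower (37.8%) at pH 6.0. Scaling every library to the same total kept a similar number of calls, 4521, but split them into 1520 higher and 3001 lower genes. The higher genes then made up 33.6% of the calls, against 48.2% with the deposited scaling, and the median log2 fold change over all genes tested was -0.25, against -0.04. The balance of rises and falls therefore depends on the scaling, while the strong changes described here are many times larger than that shift. A fall in reads of a gene in a bulk culture cannot tell fewer expressing cells and less RNA per cell apart.

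Strong changes were fewer. At a log2 fold change of at least 2 on the scale of CPM + 1, 131 genes rose (2.13%) and 117 fell (1.90%), and at 5 or more 8 rose and 12 fell. The middle 50% of genes lay between log2 fold changes of -0.53 and 0.46. The 3 libraries at pH 6.0 did not overlap with the 3 at pH 2.0 in 4798 genes (78.0%), of which 2319 (37.7%) were higher and 2479 (40.3%) lower at pH 6.0. The pH 4.0 mean lay between the other 2 means in 118 of the 131 strong rises and 99 of the 117 strong falls, beside 65.7% of all 4490 called genes. Genes chosen for a wide gap between the extremes leave more room between them, so these counts are a description. On the first principal component, which held 91.7% of the variance of these 6 libraries, pH 6.0 libraries scored 38.3 to 39.7 and pH 2.0 libraries -45.3 to -35.2.

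**Figure D1:**
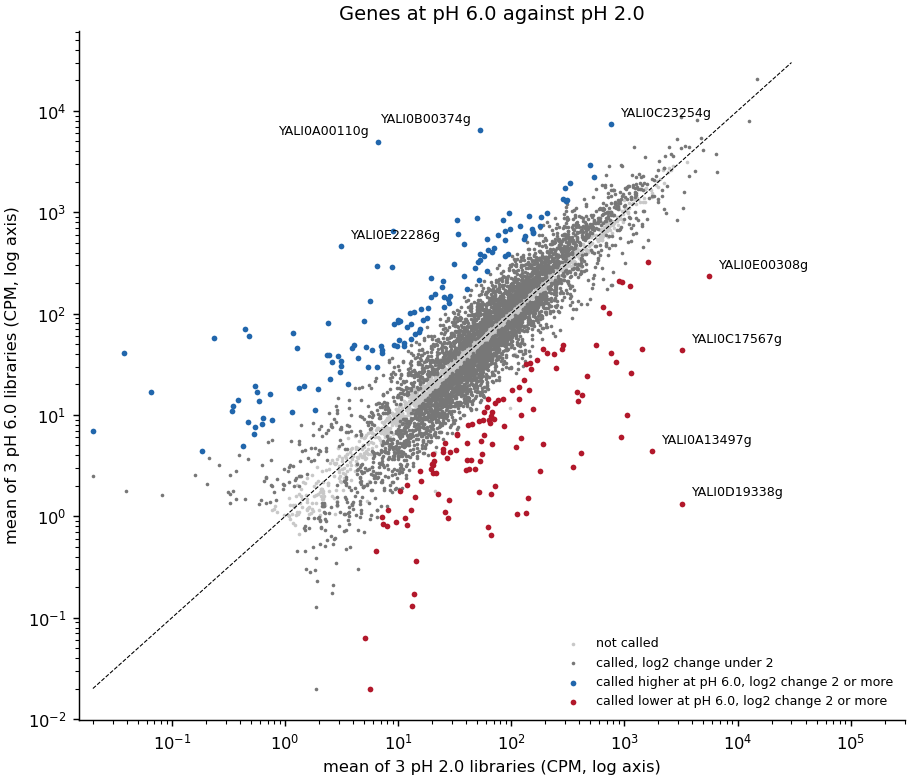
Mean CPM of the 3 pH 6.0 libraries (vertical, log axis) against the mean of the 3 pH 2.0 libraries (horizontal, log axis) for the 6151 genes; means at or near 0 are drawn at the edge, and the dashed line marks equal means. Most genes lie close to the line. The 131 strong rises (blue) and 117 strong falls (red) stand away from it over a wide range of levels. Among them are YALI0A00110g at 4947 against 6.62 CPM and YALI0D19338g at 1.34 against 3206 CPM.

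Of the 8 strongest rises, YALI0A00110g and YALI0B00374g ranked 9 and 6 by reads at pH 6.0, and the other 6 between 357 and 2899. YALI0A00110g had 4566, 5349.6 and 4927 CPM at pH 6.0, against 6.49, 5.16 and 8.21 CPM at pH 2.0. Its log2 fold change was 9.36 (SE 0.22, adjusted p = 8.07e-10), while at pH 4.0 it had only 22.4, 21.8 and 11.5 CPM. YALI0B00374g had 6328, 7160.0 and 6053 CPM at pH 6.0, against 31.1, 33.3 and 94.8 CPM at pH 2.0 (log2 fold change 7.10, SE 0.37). Unlike the first, it was already at 2477, 2379.5 and 1384 CPM at pH 4.0. In both genes every pH 6.0 library lay far above every pH 2.0 library.

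YALI0E22286g had 313, 344 and 737 CPM at pH 6.0, against 2.45, 3.80 and 3.15 CPM at pH 2.0 (log2 fold change 6.72, SE 0.27), with replicate C the highest at pH 6.0. At pH 4.0 it was at 1.86, 1.46 and 1.40 CPM, below both other groups. YALI0D06688g was at 282, 279.8 and 331 CPM at pH 6.0, against 5.94, 5.97 and 7.76 CPM at pH 2.0 (log2 fold change 5.31, SE 0.12). It too was low at pH 4.0, at 9.75, 9.27 and 8.18 CPM. The groups did not overlap in either gene.

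The acid extracellular protease YALI0B05654g, a secreted enzyme known for its activity in acid media, was also among the strongest rises at pH 6.0. It had 724, 763 and 485 CPM at pH 6.0, against 9.74, 6.17 and 11.0 CPM at pH 2.0, with 61.6, 78.4 and 44.2 CPM at pH 4.0. Its log2 fold change was 6.05 (SE 0.25, adjusted p = 2.02e-08). The highest transcript level of a protease named for acid thus stood in the least acid cultures.

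Of the other 3 genes among the strongest rises, all had means under 1 CPM at pH 2.0. YALI0B18986g had 75.7, 75.8 and 61.5 CPM at pH 6.0, against 0.123, 0.814 and 0.394 CPM at pH 2.0. YALI0E00748g had 61.5, 52.2 and 58.6 CPM at pH 6.0, against 0.184, 0.0678 and 0.450 CPM at pH 2.0. YALI0F15411g had 54.1, 53.6 and 74.1 CPM at pH 6.0, against 0.0613, 1.15 and 0.225 CPM at pH 2.0. Their log2 fold changes of 5.66, 5.57 and 5.43 are held down by the added 1 CPM, and edgeR on the recovered reads gave 7.34, 7.83 and 7.04. Values this far under 1 CPM rest on few reads each. Which genes make up the 8 also depends on that scale. By edgeR YALI0D23485g and YALI0B22814g, outside the 8, had 9.68 and 7.91, beside 5.50 for YALI0D06688g, which is among them. Both were within the floor of 3 reads at pH 2.0.

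**Figure D2:**
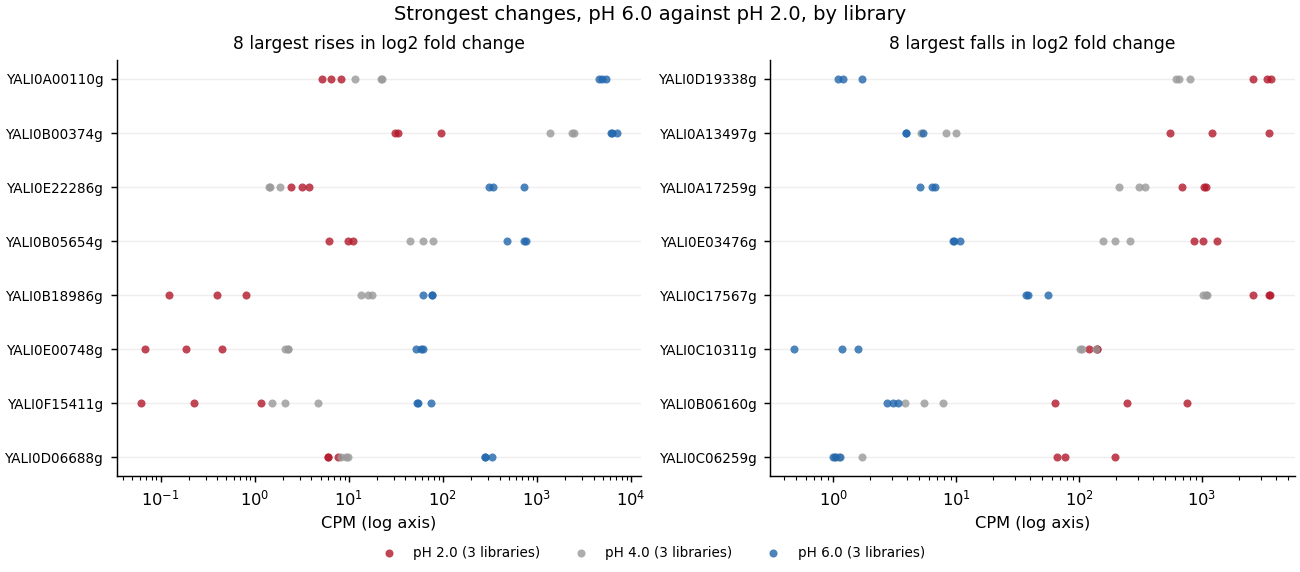
CPM (log axes) of the 8 largest rises (left) and 8 largest falls (right) in log2 fold change at pH 6.0 against pH 2.0, 1 point per library, with pH 4.0 in grey. The pH 6.0 and pH 2.0 points of each gene do not overlap, and the pH 4.0 points lie at the pH 2.0 end for YALI0D06688g and YALI0C10311g but at the pH 6.0 end for YALI0C06259g.

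The strongest fall was larger than any rise. YALI0D19338g had 1.72, 1.19 and 1.10 CPM at pH 6.0, against 3632, 3378 and 2608 CPM at pH 2.0, with a log2 fold change of -10.42 (SE 0.15, adjusted p = 1.40e-11). By reads it ranked 6019 at pH 6.0 and 17 at pH 2.0, with 646, 617 and 794 CPM at pH 4.0. YALI0C17567g, ranked 16 at pH 2.0, had 38.3, 37.0 and 55.7 CPM at pH 6.0, against 3513, 3556 and 2610.1 CPM at pH 2.0 (log2 fold change -6.18, SE 0.16). Both genes thus left the group of busiest genes.

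YALI0A17259g had 6.78, 5.09 and 6.37 CPM at pH 6.0, against 1039, 1089 and 685 CPM at pH 2.0 (log2 fold change -7.03, SE 0.21). YALI0E03476g had 9.51, 10.7 and 9.58 CPM at pH 6.0, against 1315, 1012 and 857 CPM at pH 2.0 (log2 fold change -6.58, SE 0.18). In both, the pH 4.0 libraries lay between, at 310.1, 345 and 212 CPM and at 155, 196 and 260.2 CPM. YALI0C10311g behaved otherwise: it had 1.19, 1.59 and 0.479 CPM at pH 6.0, against 139.8, 141 and 120.3 CPM at pH 2.0 (log2 fold change -6.05), and pH 4.0 stood with pH 2.0, at 137, 106 and 103 CPM.

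In the other 3 strongest falls the pH 2.0 cultures differed among themselves. YALI0A13497g had 3.92, 5.43 and 3.90 CPM at pH 6.0, against 3545, 551 and 1217 CPM at pH 2.0, and its log2 fold change of -7.96 (SE 0.52) was -7.25 when pH 2.0 replicate A was left out and -8.60 when replicate B was. YALI0B06160g had 3.09, 3.37 and 2.74 CPM at pH 6.0, against 751, 63.8 and 248 CPM at pH 2.0, and its -5.82 (SE 0.66) was -4.97 when replicate A was left out and -6.74 when replicate B was. YALI0C06259g had 1.13, 0.992 and 1.03 CPM at pH 6.0, against 196, 65.9 and 77.2 CPM at pH 2.0 (log2 fold change -5.62, SE 0.33). The pH 2.0 replicate A was the highest library in all 3, and all 3 were low at pH 4.0, at 5.14 to 9.90, 3.82 to 7.89 and 1.06 to 1.71 CPM.

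That culture stood out among the strong changes in both directions. Replicate A was the highest of the 3 pH 2.0 libraries in 87 of the 117 strong falls (74.4%), and in 36.4% of all genes tested. It was the lowest of the 3 in 71 of the 131 strong rises (54.2%), and in 39.9% of all genes tested. On the first principal component it scored -45.3, against -35.2 and -35.9 for pH 2.0 replicates B and C. The median SD of log2 values was 0.0897 at pH 6.0 and 0.106 at pH 2.0, and an SD of 1 or more occurred in 2 genes at pH 6.0 and 29 genes at pH 2.0. Without replicate A the number of genes past a log2 fold change of 2 was 224, against 248 with it. It was 265 and 259 without pH 2.0 replicates B and C. Leaving out a pH 6.0 library lowered it about as much, to 233, 235 and 227 without A, B and C. What set the bioreactor of pH 2.0 replicate A apart was not tested.

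Reads were also compared by where they lay. Between any library at pH 6.0 and any at pH 2.0, 20.2 to 23.8% of the reads lay at other genes, against 3.07 to 4.61% between libraries at pH 6.0 and 4.87 to 6.88% between libraries at pH 2.0. The 8 largest gains of CPM outside the carbon and lipid lists took 5.76% of the reads at pH 6.0 and 2.59% at pH 2.0, and the 8 largest losses 1.56% at pH 6.0 and 4.84% at pH 2.0. Only 4 of the 10 genes with most reads, and 65 of the top 100, were the same at both pH values. The top 100 of each library nevertheless held about the same share, 26.6 ± 0.153% at pH 6.0 and 26.5 ± 0.237% at pH 2.0 (SD, n = 3 each; two-sided exact permutation test, p = 0.9, smallest possible p = 0.1). It took 368 to 370 genes to reach 50% of the reads at pH 6.0, and 386 to 399 at pH 2.0, with no overlap (exact permutation p = 0.1).

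The largest gain of all came from YALI0C23254g, which had 8144, 8406 and 5634 CPM at pH 6.0, against 567, 1297 and 425 CPM at pH 2.0. Its log2 fold change of 3.42 had a wide error (SE 0.95, adjusted p = 0.00782), since the pH 4.0 libraries that share the spread were at 153, 148 and 6.46 CPM. The gene with most reads in all 6 libraries, YALI0C09141g, had 21136, 20031 and 20155 CPM at pH 6.0, against 14320.0, 14643 and 15507 CPM at pH 2.0. A log2 fold change of only 0.46 (SE 0.09, adjusted p = 0.00113) made it one of the largest gains, and with equal totals it was 0.25. Quantile normalization, which sets the highest gene of every library to the same value, leaves it no change.

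YALI0D22352g, ranked 2 by reads at pH 6.0, had 8189, 8538 and 9264 CPM there, against 2439, 3813 and 3294 CPM at pH 2.0 (log2 fold change 1.47, SE 0.14). YALI0F29909g had 4236, 4442 and 4654 CPM at pH 6.0, against 1029, 1382 and 1219.9 CPM at pH 2.0 (log2 fold change 1.88, SE 0.10). Both were in between at pH 4.0, at means of 6224 and 2894 CPM. YALI0B02398g was not: it had 5395, 5519.7 and 5113 CPM at pH 6.0, against 1946, 2295 and 4495 CPM at pH 2.0 (log2 fold change 0.97, SE 0.27, adjusted p = 0.00751), but 11758, 12003 and 7885 CPM at pH 4.0. The groups did not overlap, although pH 2.0 replicate C came close to the pH 6.0 libraries.

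Ranked by the size of the gain, the exporter of citrate, YALI0D20196g, through which the cell secretes that acid, was 1 of the 8 largest. It had 3122, 2938 and 2739 CPM at pH 6.0, against 419.9, 469 and 614 CPM at pH 2.0 (log2 fold change 2.56, SE 0.20). The pH 4.0 libraries, at 790.3, 1016 and 542 CPM, lay near the pH 2.0 ones, so most of the rise fell in the upper part of the span.

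**Figure D3:**
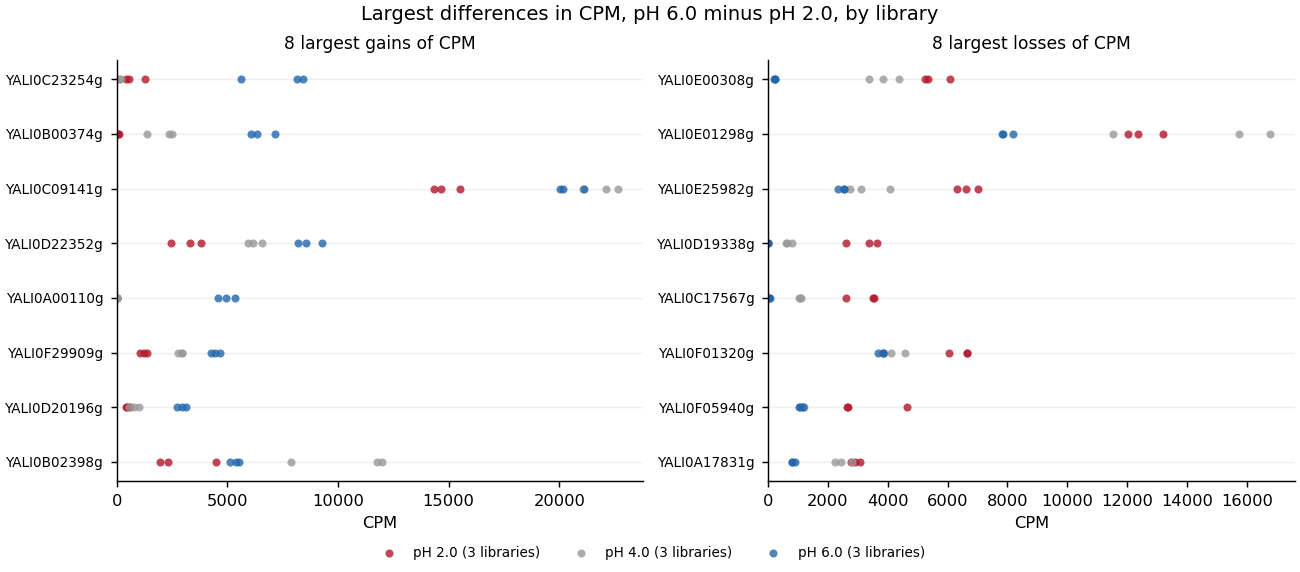
CPM of the 8 largest gains (left) and 8 largest losses (right) outside the carbon and lipid lists, pH 6.0 minus pH 2.0, 1 point per library on linear axes from 0, with pH 4.0 in grey. YALI0C09141g and YALI0E01298g carry large differences on high levels in all libraries, whereas YALI0A00110g and YALI0D19338g are near 0 in one group; pH 4.0 lies above both other groups for YALI0B02398g.

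Among the losses, YALI0E00308g lost the most. It had 244, 253 and 209.9 CPM at pH 6.0, against 5337, 5256 and 6093 CPM at pH 2.0 (log2 fold change -4.56, SE 0.11), and kept 3362, 4384 and 3851 CPM at pH 4.0. YALI0E01298g, ranked 4 by reads at pH 6.0 and 2 at pH 2.0, had 7844, 8186 and 7816 CPM at pH 6.0, against 12351, 13204 and 12014 CPM at pH 2.0 (log2 fold change -0.65, SE 0.13). Like the highest gene, it moved many reads with a modest fold change.

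The alkane cytochrome P450 YALI0E25982g, of an enzyme family that hydroxylates alkanes and fatty acids, had 2328, 2541 and 2543 CPM at pH 6.0, against 6323, 6606 and 7029 CPM at pH 2.0. It fell by 1.43 on the log2 scale (SE 0.13), in a medium whose stated carbon source was glucose. YALI0F01320g was at 3683, 3851 and 3834 CPM at pH 6.0, against 6651, 6053 and 6647 CPM at pH 2.0 (log2 fold change -0.77, SE 0.09). These genes ranked 3 and 4 by reads at pH 2.0, and their groups did not overlap.

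YALI0F05940g had 1029, 1173 and 1076 CPM at pH 6.0, against 4636, 2629.8 and 2687 CPM at pH 2.0 (log2 fold change -1.55, SE 0.18), with replicate A again the highest at pH 2.0. YALI0A17831g had 818, 889.9 and 797 CPM at pH 6.0, against 3059.7, 2899.7 and 2764 CPM at pH 2.0 (log2 fold change -1.80, SE 0.09). The pH 4.0 cultures split these genes: the first stood with pH 6.0, at 1123, 1202 and 1173 CPM, and the second nearer to pH 2.0, at 2807, 2451 and 2240.2 CPM.

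The direction of change varied with the read level. Among genes with a mean of at least 100 CPM over the 6 libraries, 1100 were higher and 446 lower at pH 6.0, while among genes under 30 CPM 413 were higher and 1058 lower. Between 10 and 30 CPM 26.2% of the called genes were higher, and between 300 and 1000 CPM 77.3% were. Of all called genes 48.2% were higher, and of all genes tested 35.1% were called higher and 37.8% lower. With equal totals the counts became 786 higher and 665 lower above 100 CPM, and 306 higher and 1256 lower under 30 CPM. Quantile normalization, which gives all libraries the same distribution of values and so removes such a difference by construction, left 753 higher and 713 lower, and 663 higher and 714 lower. Column sums, on the deposited scale, were 1051586 to 1056851 CPM at pH 6.0 and 904216 to 910806 CPM at pH 2.0.

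**Figure D4:**
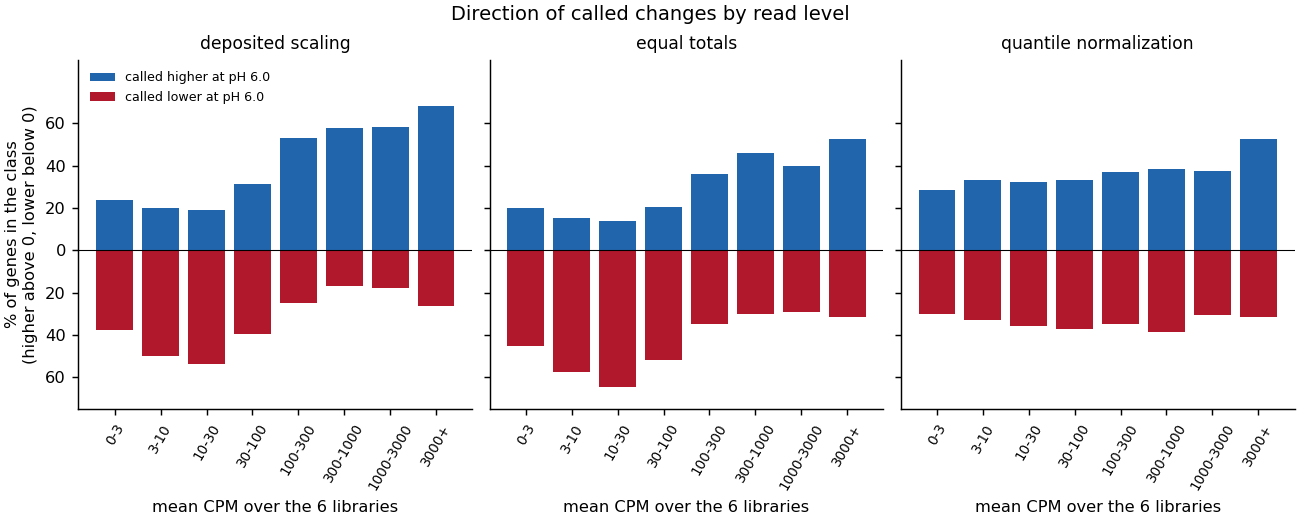
Percent of the genes in each class of mean CPM that were called higher (blue, above 0) or lower (red, below 0) at pH 6.0 against pH 2.0, under the deposited scaling, equal totals and quantile normalization. The bars tilt from falls at 10 to 30 CPM to rises from 100 CPM on under the deposited scaling, less so with equal totals, and are nearly level under quantile normalization below 3000 CPM.

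Some genes were under 1 CPM in all libraries at pH 6.0 or in all at pH 2.0. At least 10 CPM in every pH 6.0 library with under 1 CPM in every pH 2.0 library was found for 9 genes, and the opposite for 4. Such genes had to differ between the groups, so their number is given as a description. Besides YALI0B18986g and YALI0E00748g, the 9 were YALI0A06633g, YALI0A19624g, YALI0B22814g, YALI0D01958g, YALI0D06710g, YALI0F11825g and YALI0F25795g. YALI0B22814g had 17.9, 16.1 and 16.3 CPM at pH 6.0, against 0.0613, 0.136 and 0 CPM at pH 2.0, which is within the floor of 3 reads. YALI0F11825g was under 1 CPM at pH 4.0 as well, at 0.447, 0.265 and 0.156 CPM.

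The 4 genes of the opposite kind were YALI0B00682g, YALI0B16852g, YALI0C16522g and YALI0E25443g. YALI0B16852g had 0.773, 0.662 and 0.548 CPM at pH 6.0, against 97.8, 43.2 and 56.9 CPM at pH 2.0. YALI0E25443g had 0.892, 0.992 and 0.479 CPM at pH 6.0, against 129, 19.3 and 39.4 CPM at pH 2.0. In both, replicate A was the highest at pH 2.0. YALI0C16522g kept a low level at pH 4.0, 2.98, 3.97 and 2.49 CPM, against 18.0, 11.7 and 12.0 CPM at pH 2.0.

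Genes next to each other in the tag order changed together in places. Runs of at least 4 neighbouring genes, all called in the same direction with a log2 fold change of at least 1, numbered 3 and held 13 genes, beside a share of 21.1% of all genes past that size in either direction. With equal totals runs held 26 genes, and where 3 neighbours sufficed 73. The rising runs on chromosomes A and C, described below, did not meet the definition with equal totals. There YALI0A21351g, YALI0C22385g and YALI0C22394g had log2 fold changes of 0.92, 0.83 and 0.92, under the 1 asked for. Runs are a description, since how often they arise without any link between neighbours was not computed. Whether reads were counted by strand is not stated, so reads of overlapping neighbours cannot be told apart.

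The run on chromosome A rose as a whole. YALI0A21307g had 2200.2, 1839 and 1776 CPM at pH 6.0, against 286, 332 and 376 CPM at pH 2.0 (log2 fold change 2.55). YALI0A21373g had 41.5, 43.1 and 32.0 CPM at pH 6.0, against 2.45, 2.24 and 2.64 CPM at pH 2.0 (log2 fold change 3.52). The other members, YALI0A21351g and YALI0A21395g, had log2 fold changes of 1.13 and 1.52, and no member's groups overlapped. Without pH 2.0 replicate B the log2 fold change of YALI0A21351g was 0.98, under the limit for a run.

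The run on chromosome C also rose, with log2 fold changes of 1.44 for YALI0C22341g, 2.27 for YALI0C22363g, 1.04 for YALI0C22385g and 1.13 for YALI0C22394g. The largest of these, YALI0C22363g, had 23.7, 30.6 and 35.8 CPM at pH 6.0, against 4.11, 6.11 and 6.08 CPM at pH 2.0. YALI0C22394g had 637, 604 and 717 CPM at pH 6.0, against 437, 356 and 167 CPM at pH 2.0, and without pH 2.0 replicate C its log2 fold change was 0.72, under the 1 that a run asks for. That of YALI0C22385g was 0.95, also under 1, when pH 6.0 replicate A was left out.

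The run on chromosome E fell. Its 5 members, YALI0E01804g to YALI0E01892g, had log2 fold changes of -1.73 to -1.13. YALI0E01848g, the member that fell most, had 12.5, 13.8 and 12.1 CPM at pH 6.0, against 48.7, 44.0 and 41.5 CPM at pH 2.0. YALI0E01870g, with the most reads of the 5, had 63.6, 56.1 and 63.5 CPM at pH 6.0, against 189.9, 128 and 138 CPM at pH 2.0. Groups did not overlap in any of the 5.

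**Figure D5:**
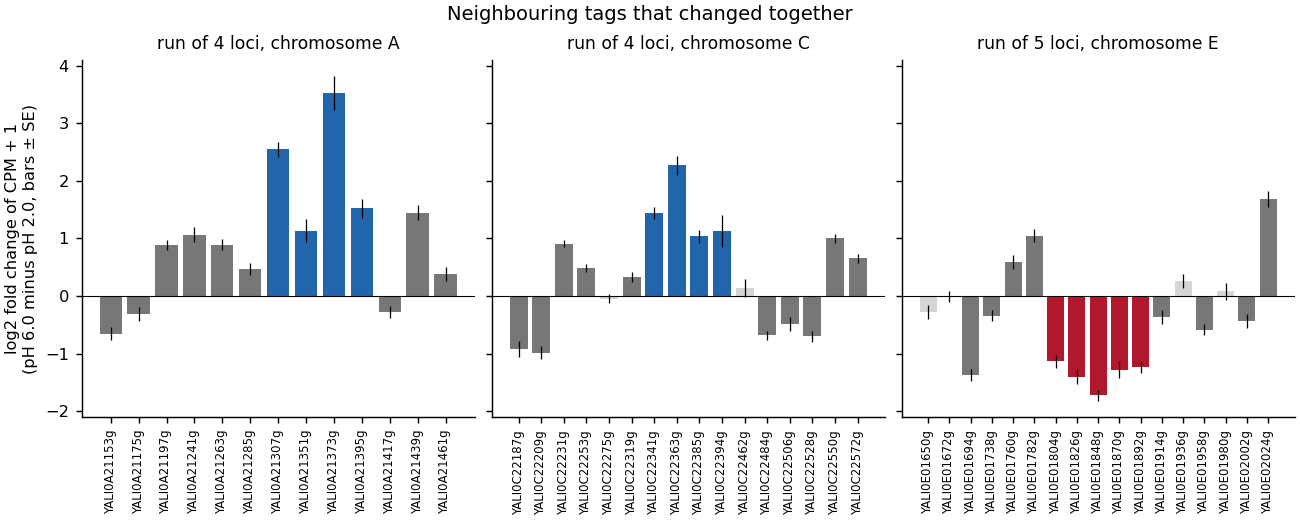
Log2 fold change of CPM + 1, pH 6.0 minus pH 2.0 (bars, with SE), for the 3 runs (blue, higher; red, lower) and up to 6 tags on either side (dark grey, called; light grey, not called) in tag order. The tags directly beside each run change by less than 1 or in the other direction, as the definition of a run implies, for example on both sides of the 5 falls of -1.73 to -1.13 on chromosome E.

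Strongly changed pairs of neighbours, both past a log2 fold change of 2, went the same way in 11 cases and opposite ways in 4. Not all pairs are separate, since YALI0C23276g is paired with both YALI0C23254g and YALI0C23298g. As for runs, how often such pairs arise without any link between neighbours was not computed. YALI0D06710g, next to YALI0D06688g, had 13.7, 15.1 and 22.0 CPM at pH 6.0, against 0.429, 0.543 and 0.731 CPM at pH 2.0. YALI0C03443g and YALI0C03465g were both high in the same libraries, with 709, 656 and 848 and with 891, 883 and 1191 CPM at pH 6.0, against 147, 129.8 and 83.7 and 104, 117 and 64.7 CPM at pH 2.0. Both peaked in the same pH 4.0 culture, replicate C, at 1258 and 1409 CPM. YALI0E32901g and YALI0E32967g fell together, with log2 fold changes of -5.39 and -4.10.

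Of the 4 opposite pairs, the largest gap was between YALI0F25773g and YALI0F25795g. YALI0F25773g had 3.69, 2.71 and 2.05 CPM at pH 6.0, against 171, 142 and 225 CPM at pH 2.0. Its neighbour YALI0F25795g had 15.8, 15.6 and 11.0 CPM at pH 6.0, against 0.184, 0.339 and 0.619 CPM at pH 2.0. Likewise YALI0B06138g was called higher (log2 fold change 2.63) beside YALI0B06160g (-5.82). Across the chromosomes the share of genes called varied little, between 72.0% on E and 75.6% on C.

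Of the 8 loci with a role that are not on the carbon and lipid list, 6 were higher, 1 was lower and 1 was not called. Of all genes, 35.1% were higher. The median log2 fold change of the 8 was 1.79, beside -0.04 for all genes tested. These loci were chosen with earlier results of these data known, so the counts and median are a description. With equal totals 6 were higher and 2 lower. Rim101 (YALI0B13640g) had 685, 763 and 766 CPM at pH 6.0, against 184, 178 and 180.1 CPM at pH 2.0, and rose by 2.02 (SE 0.07). Its pH 4.0 libraries, at 276, 251 and 258 CPM, lay nearer to pH 2.0. The plasma membrane proton ATPase YALI0B22682g had 177, 185 and 189 CPM at pH 6.0, against 112, 119.9 and 131 CPM at pH 2.0 (log2 fold change 0.60, and 0.39 with equal totals). The pump's transcripts were thus fewest in the most acid cultures, by a small margin without overlap.

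The alternative oxidase YALI0D09933g, which passes electrons from ubiquinol to oxygen without pumping protons, had 2393, 2239 and 2429 CPM at pH 6.0, against 472, 952 and 620.3 CPM at pH 2.0 (log2 fold change 1.85, SE 0.21). The external NADH dehydrogenase YALI0F25135g, which feeds cytosolic NADH into the same chain, had 940.1, 926 and 1029.5 CPM at pH 6.0, against 260.0, 334 and 276 CPM at pH 2.0 (log2 fold change 1.74, SE 0.09). The alternative oxidase had already reached a similar level at pH 4.0, with a mean of 2456 CPM. The NADH dehydrogenase was at 844, 811 and 807 CPM at pH 4.0, below every pH 6.0 library but nearer to them than to pH 2.0. The hyphal growth regulator YALI0B21582g, the sole marker of the filamentous cell form used here, had 35.0, 38.8 and 30.8 CPM at pH 6.0, against 36.8, 38.0 and 43.4 CPM at pH 2.0. Its groups overlapped and it was not called (adjusted p = 0.346), but with equal totals it was called lower (log2 fold change -0.38).

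The 42 loci of central carbon and lipid metabolism moved in both directions, with 19 higher, 12 lower and 11 not called and a median log2 fold change of 0.12. The calls are close to their share over all genes, of which 73.0% were called. At equal totals 15 were higher and 18 lower, beside 1520 and 3001 of all genes. Mannitol dehydrogenase YALI0B16192g, which interconverts fructose and mannitol, was the top of that range with 562, 608 and 673 CPM at pH 6.0, against 30.8, 37.9 and 33.6 CPM at pH 2.0. At the bottom was the acyl-CoA oxidase YALI0E27654g, which opens a round of beta-oxidation, with 111, 115 and 109 CPM at pH 6.0, against 352, 409 and 362 CPM at pH 2.0. Their log2 fold changes were 4.13 and -1.73.

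The 16 genes of the mitochondrial genome were listed under tags of their own. None was higher and 13 were lower at pH 6.0, beside 37.8% lower over all genes, with a median log2 fold change of -1.32 beside -0.04. Their summed level was 922, 854 and 557 CPM at pH 6.0, against 3558, 2236 and 1174 CPM at pH 2.0. At pH 4.0 it was 2883, 1967 and 1925 CPM, so at each pH the sum fell from replicate A to C. Most of it came from YalifMr30, which had 636, 582 and 374 CPM at pH 6.0, against 2466, 1544 and 795 CPM at pH 2.0 (log2 fold change -1.48, SE 0.35). Spread was wide in both groups, 5 of the 16 genes overlapped between them, beside 1353 of all 6151, and leaving out single libraries gave 10 to 16 lower genes. How RNA was selected for the libraries is not stated beyond the kit, and its part in these values was not tested.

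At the other end stood busy genes that were not called. The 3 with most reads were YALI0F09790g, YALI0D17864g and the acyl-CoA oxidase YALI0F10857g. YALI0F09790g had 3113, 3271 and 2982 CPM at pH 6.0, against 3477, 3634 and 3573 CPM at pH 2.0 (log2 fold change -0.19, adjusted p = 0.139). With equal totals it was called lower, at -0.41. YALI0F10857g had 2721, 2977 and 2981 CPM at pH 6.0, against 2651, 2679 and 2695 CPM at pH 2.0 (log2 fold change 0.11, SE 0.08). YALI0D17864g had 2686, 2753 and 2728 CPM at pH 6.0, against 2253, 2572 and 2579.8 CPM at pH 2.0 (log2 fold change 0.14, SE 0.08). In none of the 3 did the pH 6.0 and pH 2.0 libraries overlap, so a missed threshold does not show equal levels here.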

How the data were processed

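Total RNA of the cultures was treated with DNase and made into stranded TruSeq libraries, sequenced for 101 cycles on a HiSeq2500, per the labels' protocols. Tools named in the submitters' processing notes were edgeR, HTSeq, TopHat2 2.0.10, Trimmomatic 0.30 and bcl2fastq 1.8.4. Genome build, annotation and strand setting were not given in the sources used here. Per the file headers, the deposited values are a normalized signal, CPM by edgeR's effective library size, and need not sum to 1000000. All values were whole multiples of 1 read (100% in each library, tolerance 0.01 reads), which gave the recovered reads and depth; floors cover counting error only. None of the 6170 identifiers (0 matched) is in the reference table of 8689 genes.

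Values were tested as log2(CPM + 1) with limma 3.58.1 (R 4.3.3) and a mean-variance trend, in 1 fit of 9 libraries with 1 mean per pH (6 residual degrees of freedom); the contrast was pH 6.0 minus pH 2.0, two-sided, with Benjamini-Hochberg adjustment over 6151 genes. The pseudocount makes folds of low genes smaller. Single values per library were compared by two-sided exact permutation tests. Alternatives were equal totals, quantile normalization, a pseudocount of 0.25 or 5, a filter at 10 CPM or none, a replicate block, 6 libraries only, edgeR 4.0.16 and DESeq2 1.42.0 on recovered reads, and leaving out each library. Named genes (49) were the 8 largest rises and falls with a mean of at least 10 CPM in the higher group, the 8 largest gains and losses of CPM, the 3 uncalled genes with most reads, 8 loci with a role, and members of the runs; extremes, gains and losses had groups that do not overlap and lay outside the carbon and lipid lists. Other genes the text names were chosen after their values were seen. They are in the sections on genes under 1 CPM in a whole group, pairs, lists and mitochondrial genes. Members and lists were chosen with earlier results of these data known. The labels name triplicate bioreactors but not separate inocula, so p-values measure the spread between these cultures.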

Additional observations from a re-analysis of the deposited data

How the results depend on the processing

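Counts of genes called, higher and lower stayed within 1.5 times of 4490, 2162 and 2328 under all alternatives run. Leaving out single libraries gave 4075 to 4588 called, 1943 to 2208 higher, 2132 to 2380 lower, and 224 to 265 past a log2 fold change of 2; edgeR called 4504 and DESeq2 4460. Genes past a log2 fold change of 2 numbered 165 with a pseudocount of 5 against 248 as reported, since a larger pseudocount shrinks folds of low genes. Genes in runs numbered 13, but 73 when 3 neighbours sufficed and 0 when a log2 fold change of 2 was asked. They numbered 26 with equal totals and 13 without pH 2.0 replicate A. The settings of equal totals and replicate A for runs, and those by read level, were chosen after seeing the data. The run on chromosome A did not hold without pH 2.0 replicate B. That on C did not hold without pH 2.0 replicate C, nor without pH 6.0 replicate A. Neither run held with equal totals. Uncalled values changed sign for YALI0F10857g (-0.10 with equal totals, -0.13 under quantile normalization) and YALI0D17864g (-0.072 and -0.033). Of 49 named genes under 19 alternatives, 5 changed side of the threshold or sign in at least 1: besides these, YALI0C09141g lost its call under quantile normalization, YALI0F09790g was called lower under 4 alternatives, and YALI0B21582g with equal totals; DESeq2 called YALI0D17864g higher (0.17). For genes under 30 CPM the higher calls were 413, and 663 under quantile normalization; for genes of at least 100 CPM the lower calls were 446, and 713. Over all genes tested, the replicate letters did not pair the pH 6.0 and pH 2.0 samples. Deviations of same-letter libraries correlated at 0.123, -0.205 and 0.0134, and not every sample correlated best with its own letter. The summed mitochondrial level nevertheless fell from replicate A to C at each pH, and a link of that order to the letters was not tested. A replicate block gave 4423 calls, 2130 higher and 2293 lower, and changed no call of a named gene. The share of reads in the top 100 genes differed by 0.02 percentage points in all rows and in rows past the filter.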

Other observations

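Among genes outside the naming rule, YALI0D23485g and YALI0B13090g, picked after their values were seen, differed more within a group than most. YALI0D23485g had 7.13, 26.1 and 88.0 CPM at pH 6.0, against 0, 0 and 0.113 CPM at pH 2.0, where the highest value is within the floor of 3 reads. YALI0B13090g had 3.69, 5.03 and 3.90 CPM at pH 6.0, against 481, 756 and 4.16 CPM at pH 2.0. There the pH 2.0 replicate C lay within the range of the pH 6.0 libraries, unlike replicates A and B. Its log2 fold change was -4.58 (SE 1.43, limma, adjusted p = 0.0141), but it rested on single libraries: it was -6.87 without that replicate, -3.60 without replicate A and -3.27 without replicate B. The call was lost in at least 1 fit without a single library (limma, highest adjusted p = 0.0531).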
